A study of Mus musculus with 6 samples.

Results

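The insulin-like growth factor axis is described here through the binding of the transcription factor RUNX1 at 10 genes: the ligand gene Igf1, the receptor genes Igf1r, Igf2r and Insr, the receptor substrate genes Irs1 and Irs2, the binding protein genes Igfbp2, Igfbp4 and Igfbp5, and the protease gene Pappa. RUNX1 peaks were assigned to a gene when their summit lay inside its RefSeq gene body on GRCm38 or within 50 kb of either end. By this rule 96 of the 51515 peaks in the 4 deposited lists belonged to these genes. All 10 genes were in the gene table, which holds 21900 protein-coding genes in all. Their peaks were compared between granulosa cells collected before (0 h) and 6 h after human chorionic gonadotropin (hCG), to ask which sites were bound at each time.

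The binding was measured by chromatin immunoprecipitation and sequencing (ChIP-seq) with a RUNX1 antibody. All groups came from 21-day-old CBA x C57BL/6 F1 mice primed with 5 IU of eCG (equine chorionic gonadotropin), a hormone that makes follicles grow. The 0 h group is labelled as pre-ovulatory granulosa cells at 0 h after hCG, and the 6 h group as peri-ovulatory granulosa cells 6 h after 5 IU of hCG, which was given 46 h after eCG and acts in place of the luteinising hormone surge. Every sample carries one treatment text, which tells of the 6 h collection alone, so only the titles and the time-point label define the 0 h group. There were 2 ChIP libraries per time point and 1 pooled input per time point. The labels do not say whether the libraries of a time point came from separate animals, so the spread between them may be technical. The lists hold no expression values, and the labelled cell type was not checked against marker genes.

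Granulosa cells surround the oocyte in the ovarian follicle. In the mouse ovary they make insulin-like growth factor 1, which acts through the receptor tyrosine kinase encoded by Igf1r and strengthens the response of these cells to follicle-stimulating hormone. The receptor passes its signal through the docking proteins encoded by Irs1 and Irs2. Binding proteins hold the ligand away from the receptor, and the protease encoded by Pappa releases it by cutting some of them.

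The promoters of 5 of these genes overlapped RUNX1 peaks in both 6 h libraries, and their sequences are shown because the peaks lie on them. RefSeq promoter windows of 300 bases (250 before the gene start and 50 after it, GRCm38.p6) were at hand for 8 of the 10 genes, with 2 windows for Igfbp2. The 5 are among 9 windows, and 25.3% of all 32851 RefSeq promoter windows overlapped peaks of both 6 h libraries. Peaks of 0 h replicate 2 also overlapped the windows of Igf1r, Irs1 and Irs2, against 4.96% of all windows. No peak of 0 h replicate 1 overlapped any of the 9 windows, and 0.977% of all windows had one. The windows lie at chr7:67952007-67952306 on the plus strand (Igf1r), chr1:82291390-82291689 on the minus strand (Irs1) and chr8:11008880-11009179 on the minus strand (Irs2). In these 3 sequences, read 5′ to 3′, capitals mark the bases inside a peak of 0 h replicate 2, which are 132, 221 and 219 bases.
Igf1r: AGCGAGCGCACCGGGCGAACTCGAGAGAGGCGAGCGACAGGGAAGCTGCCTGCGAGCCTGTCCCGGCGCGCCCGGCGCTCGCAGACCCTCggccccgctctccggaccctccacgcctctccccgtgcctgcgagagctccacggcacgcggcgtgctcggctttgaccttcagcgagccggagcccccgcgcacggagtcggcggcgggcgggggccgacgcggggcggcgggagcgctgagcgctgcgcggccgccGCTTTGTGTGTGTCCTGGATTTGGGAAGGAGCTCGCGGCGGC
Irs1: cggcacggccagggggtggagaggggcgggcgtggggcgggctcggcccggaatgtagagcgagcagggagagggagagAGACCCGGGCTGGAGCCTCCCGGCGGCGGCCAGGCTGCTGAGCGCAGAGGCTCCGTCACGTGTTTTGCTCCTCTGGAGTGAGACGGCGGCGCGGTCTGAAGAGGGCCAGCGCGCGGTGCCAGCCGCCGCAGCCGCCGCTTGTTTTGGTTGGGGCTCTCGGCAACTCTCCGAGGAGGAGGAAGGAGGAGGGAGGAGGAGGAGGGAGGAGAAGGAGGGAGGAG
Irs2: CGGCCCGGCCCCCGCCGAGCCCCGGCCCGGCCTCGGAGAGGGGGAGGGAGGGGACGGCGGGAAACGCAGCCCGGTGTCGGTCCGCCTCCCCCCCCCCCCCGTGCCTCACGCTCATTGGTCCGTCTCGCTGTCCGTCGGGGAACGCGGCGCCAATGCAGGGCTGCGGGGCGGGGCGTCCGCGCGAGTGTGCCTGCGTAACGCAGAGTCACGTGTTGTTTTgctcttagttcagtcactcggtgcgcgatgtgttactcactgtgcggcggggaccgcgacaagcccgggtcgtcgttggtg

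The other bound windows were those of Igf2r at chr17:12769657-12769956 on the minus strand and of Igfbp4 at chr11:99040994-99041293 on the plus strand. Here capitals mark the bases inside the peaks of both 6 h replicates, which are 235 and 29 bases.
Igf2r: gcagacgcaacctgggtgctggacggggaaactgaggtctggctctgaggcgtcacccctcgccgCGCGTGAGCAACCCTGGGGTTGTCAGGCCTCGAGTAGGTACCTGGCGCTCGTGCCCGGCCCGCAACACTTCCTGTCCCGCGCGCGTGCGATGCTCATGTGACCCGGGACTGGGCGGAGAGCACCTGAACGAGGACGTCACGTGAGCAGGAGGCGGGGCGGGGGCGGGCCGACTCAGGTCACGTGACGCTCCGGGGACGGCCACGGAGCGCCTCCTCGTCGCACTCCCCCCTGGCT
Igfbp4: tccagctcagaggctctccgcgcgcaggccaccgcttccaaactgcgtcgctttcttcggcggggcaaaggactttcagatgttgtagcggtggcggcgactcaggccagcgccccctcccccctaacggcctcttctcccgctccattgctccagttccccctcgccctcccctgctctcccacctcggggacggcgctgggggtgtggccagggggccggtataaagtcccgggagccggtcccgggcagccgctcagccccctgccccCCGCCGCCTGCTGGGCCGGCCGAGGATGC

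None of the 9 windows held TGTGGT, the core of the RUNX motif, on either strand (searched as TGTGGT and ACCACA). Among all 32851 promoter windows of this length 16.8% held it. The share was 12.0% in the 8321 windows overlapped by peaks of both 6 h libraries and 19.1% in the 22291 windows without a peak. Base composition differed along with this, with a median GC content of 64.0% in the windows with peaks of both 6 h libraries and 48.7% in those without a peak. The 5 bound windows of the axis had a GC content between 70.7% and 76.0%, and the unbound windows of Igf1, Igfbp2 and Igfbp5 had between 52.3% and 67.0%. The result says only that these letters were not in these windows. The 6 h summits of the Igf1r and Igfbp4 sites lay outside the windows, as did the 6 h replicate 2 summit at Irs1. The sequence at those summits was not searched. The sequences under the peaks away from promoters were not analysed here.

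Far more RUNX1 peaks were called at the genes of the axis at 6 h than at 0 h. The windows of the 10 genes held 3 peaks in 0 h replicate 1 and 10 in 0 h replicate 2, a mean of 6.50 ± 4.95 (SD, n = 2). They held 30 peaks in 6 h replicate 1 and 53 in 6 h replicate 2, a mean of 41.5 ± 16.3 (SD, n = 2). Both 6 h libraries lay above both 0 h libraries. On the scale of log2(peak number + 1) the mean was 2.62 higher at 6 h (two-sided exact permutation p = 0.333 over 2 libraries per time), and 0.333 is the smallest p that 2 libraries against 2 can give. The ratio of the means was 6.38, against 11.6 for the whole lists. When each list was restricted to its 948 peaks with the lowest p-values, the length of the shortest list, the windows held 3, 3, 2 and 3 peaks in 0 h replicates 1 and 2 and 6 h replicates 1 and 2, so the difference in number was no longer there.

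The axis made up 0.316% (95% CI 0.0653 to 0.922) of the peaks of 0 h replicate 1 and 0.319% (0.153 to 0.586) of those of 0 h replicate 2. At 6 h it made up 0.160% (0.108 to 0.228) and 0.185% (0.138 to 0.242). The intervals are exact Clopper-Pearson intervals and cover counting error only. The mean share was 0.318% at 0 h and 0.172% at 6 h, a difference of -0.145 percentage points (two-sided exact permutation p = 0.333). This difference rested on Igf1r: without that gene the shares were 0.105% and 0.128% at 0 h and 0.107% and 0.136% at 6 h, and the difference was 0.00478 percentage points in the other direction (exact permutation p = 0.667). The windows of the 10 genes cover 0.110% of the windows drawn in the same way around all coding genes, and 0.0874% without Igf1r. Peak density in the windows of the 10 genes was 1.62 and 5.39 per Mb at 0 h and 16.2 and 28.6 per Mb at 6 h. Around all coding genes it was 0.507, 1.76, 10.4 and 15.5 per Mb.

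**Figure D1:**
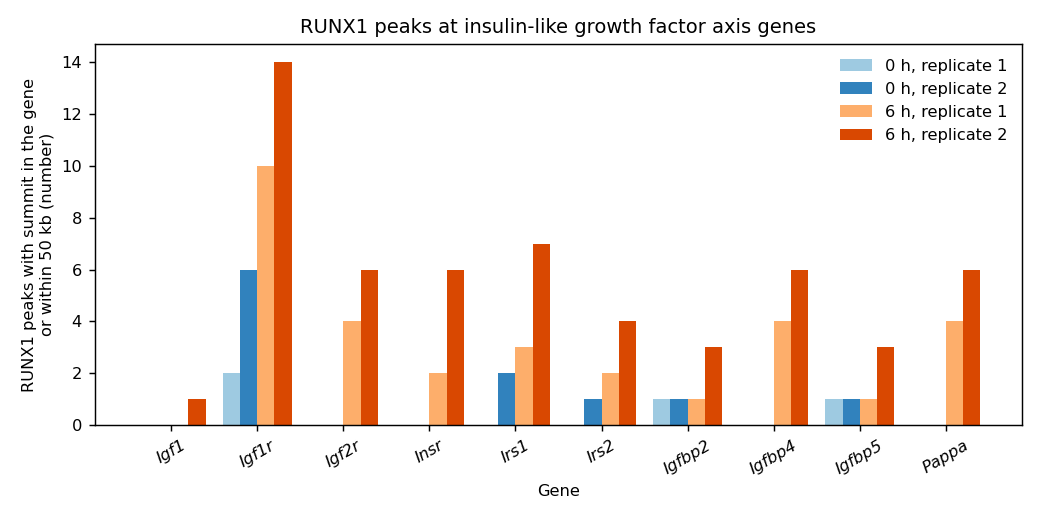
Number of RUNX1 peaks (y axis) with a summit inside each gene or within 50 kb of it (x axis), as 1 bar per library and no error bars. Igf1r has the tallest bar in each library, with 2, 6, 10 and 14 peaks; the peaks shown for Igfbp2 are those of its neighbour Igfbp5.

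Igf1r held the most peaks and Igf1 the fewest. The numbers in 0 h replicates 1 and 2 and 6 h replicates 1 and 2 were 2, 6, 10 and 14 for Igf1r and 0, 2, 3 and 7 for Irs1. Igf2r, Igfbp4 and Pappa had no 0 h peak, and each had 4 and 6 peaks at 6 h. A peak of 0 h replicate 1 was found at 3 of the 10 genes (9.42% of coding genes) and a peak of 0 h replicate 2 at 5 (28.2%). At 6 h, 9 genes had a peak in replicate 1 (69.3% of coding genes) and 10 in replicate 2 (76.1%).

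A region was called replicated when overlapping peaks of both libraries of a time point were merged, with an overlap of at least 1 bp. At 0 h, 3 of the 10 genes had a replicated region (8.75% of coding genes did). These are Igf1r, Igfbp5 and Igfbp2, and the last of these shares its region with Igfbp5, since the genes are neighbours with a gap of 5590 bp and their windows overlap. Without 0 h replicate 1, where a peak of the other library was enough, the number was 5 (28.2% of coding genes had such a peak). At 6 h, 9 of the 10 genes had a replicated region (68.8% of coding genes did). Igf1 was the exception. In lists of equal length, 2 genes had one (6.85% of coding genes). At 5 genes a replicated 6 h region overlapped a 0 h peak (27.7% of coding genes), and at the other 4, Igf2r, Insr, Igfbp4 and Pappa, the replicated 6 h regions overlapped none (41.1% of coding genes). The windows of the 10 genes had a median length of 168559 bp and those of all coding genes 117146 bp, so these shares are not at equal length.

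Merging the peaks of all 4 lists gave 53 separate sites at the axis. Of these, 30 were called in both 6 h libraries and the other 23 in 6 h replicate 2 alone. In the whole genome 29112 such sites had a 6 h peak, of which 59% were called in both 6 h libraries and 38.6% in 6 h replicate 2 alone. All 13 peaks of the 0 h lists fell into 7 sites, and each of the 7 was called in both 6 h libraries, as were 93.5% of the 3032 sites with a 0 h peak in the whole genome. Among the 30 replicated 6 h regions, the 7 with a 0 h peak make up 23.3% (95% CI 9.93 to 42.3, Clopper-Pearson). The share over all 17190 replicated 6 h regions was 16.5%. The interval covers counting error only and treats regions of the same gene as independent, so it is not a test against that share. Without 0 h replicate 2 the share was 10% at the axis and 4.96% over all regions, and without 6 h replicate 1 it was 13.2% and 10.3%. When summits had to lie within 100 bp it was 12.0% at the axis and 14.5% over all regions, and in lists of equal length 50% (1 of 2 regions) and 56.5%. Without Igf1r, which holds 4 of the 7, the share at the axis was 15% (3 of 20 regions), below that over all regions. In the 30 sites, the median distance between the outermost summits of a site was 35.5 bp.

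Fold enrichment (ChIP over local background, the authors' value) is not on a common scale across lists, so sites are compared by 2 other quantities. The percentile is the place of a peak's fold within its own list, with the highest fold at 100. The lists differ in length, so percentiles are not compared between the times. The scaled pileup is the number of reads at the summit, recovered from the deposited fold and p-value, divided by the genome-wide background of that library. That background was 2.77 and 2.65 reads in 0 h replicates 1 and 2 and 2.76 and 2.13 reads in 6 h replicates 1 and 2. At this background a peak needed at least 18 reads in 0 h replicate 1 and 17 in 0 h replicate 2, a scaled pileup of 6.50 and 6.42. At the highest local background of any 0 h peak of the axis, 5.53 reads, it needed 25 in both. A site without a 0 h peak may therefore have had weaker binding below these limits. A higher pileup from more bound cells and one from more binding per cell cannot be told apart. The 0 h libraries had similar backgrounds but 948 and 3135 peaks, and whether immunoprecipitation differed between libraries was not tested.

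The ligand gene Igf1, on chromosome 10, was the least bound. Its single peak, at chr10:87879976-87880282, lay inside the gene 18998 bp downstream of the start and was called only in 6 h replicate 2. It had 45 reads, a fold of 10.9 and percentile 51.5. With the same pooled input, a call in 6 h replicate 1 would have needed 21 reads at this position. Scaled to the background of 6 h replicate 1, the 45 reads correspond to 58.3.

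Igf1r, which encodes the main signalling receptor of the axis, had 10 replicated 6 h regions in its window on chromosome 7, more than 98.9% of coding genes had. The gene is 281412 bp long, and per 100 kb of window the number was 2.62, higher than at 76.2% of coding genes. The strongest region at 6 h, by pileup, crossed the gene start. This site, at chr7:67950262-67952656, had its summit 1151 bp upstream of the start. The pileup was 29 and 41 reads in 0 h replicates 1 and 2 and 188 and 185 reads in 6 h replicates 1 and 2. Both 6 h values were above both 0 h values. In 0 h replicate 2 the site held 3 separate peaks, of 41, 31 and 29 reads, and the highest is given. This peak and that of 0 h replicate 1 ended upstream of the start. The percentiles of the site in the 6 h lists were 92.0 and 93.0. The scaled pileup was 10.5 and 15.5 before hCG, and 68.1 and 86.9 at 6 h, a ratio of the means of 5.97 (two-sided exact permutation p = 0.333, 2 libraries per time).

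A second Igf1r site was called in all 4 libraries. It lay inside the gene at chr7:68062706-68063235, 110749 bp downstream of the start, where the summits of the 4 libraries fell within 19 bp of each other. Its pileup was 51 and 57 reads in the 0 h libraries, then 72 and 121 reads in the 6 h libraries, again without overlap between the times. The scaled pileup was 18.4 and 21.5 before hCG, and 26.1 and 56.8 at 6 h, with a ratio of the means of 2.08 (two-sided exact permutation p = 0.333). Without 6 h replicate 2 the ratio was 1.31. At 0 h this inner site stood above the one at the start, and at 6 h it stood below it.

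Another 2 Igf1r sites had a peak in 0 h replicate 2 and none in 0 h replicate 1. The site 815 bp downstream of the start, at chr7:67952799-67954364, had 26 reads in 0 h replicate 2 and 47 and 48 reads at 6 h. The site at chr7:68015437-68015931, 63373 bp downstream, had 44 reads in 0 h replicate 2 and 46 and 63 reads at 6 h. A call in 0 h replicate 1 would have needed 19 and 25 reads at these positions. Of the 10 replicated sites, 8 lay between 63373 and 112926 bp downstream of the start. The highest-ranking of those without a 0 h peak, at chr7:68041834-68042195, had 74 and 110 reads at 6 h and percentiles 84.6 and 91.6. The next, at chr7:68021692-68022173, had 80 and 114 reads and percentiles 68.6 and 83.5.

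**Figure D2:**
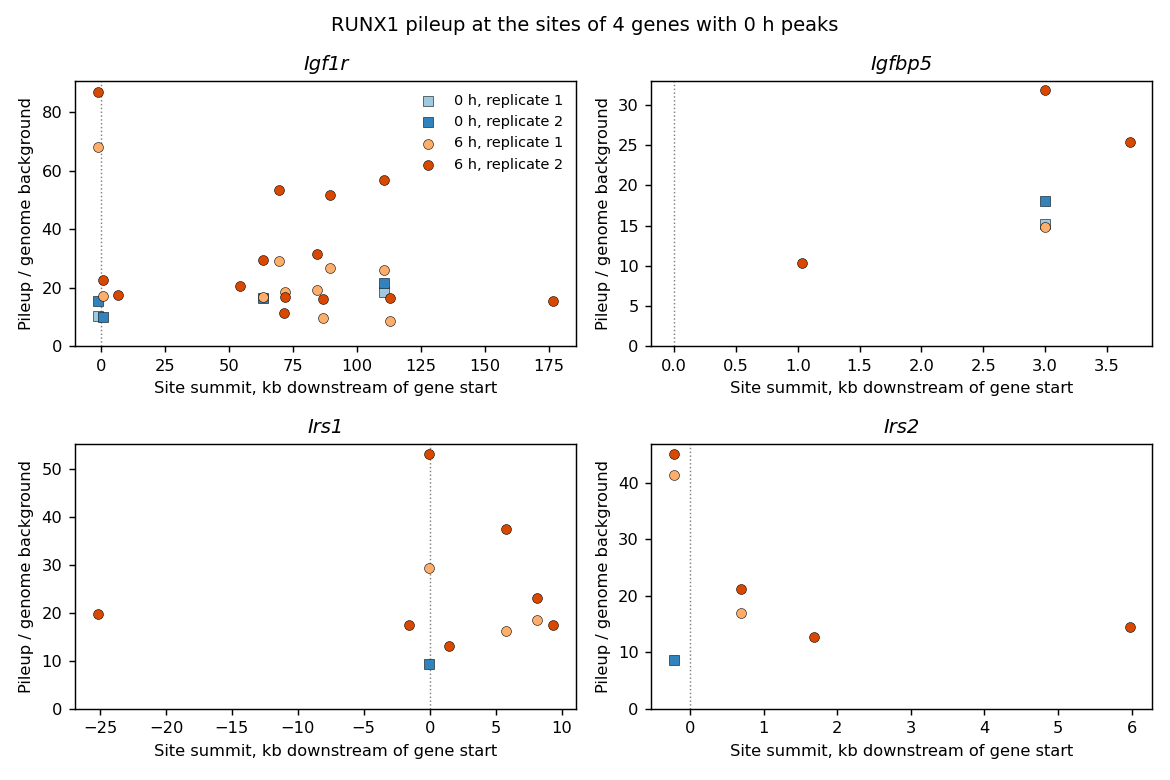
Scaled pileup (reads at the summit over the genome-wide background of the library, y axis) of each called site against the distance of its summit from the gene start in kb (x axis), for the 4 genes that hold sites with a 0 h peak. Squares are 0 h and circles 6 h libraries, and a library without a call has no point; at the Igf1r start the 6 h points are at 68.1 and 86.9 and the 0 h points at 10.5 and 15.5.

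Insr, the insulin receptor gene on chromosome 8, held the highest-ranking site of the axis at 6 h. The site at chr8:3220978-3221734 lay inside the gene, 58435 bp from its nearer end. It had 133 and 165 reads in 6 h replicates 1 and 2, a fold of 35.6 and 53.0, and percentiles 99.1 and 99.2. The summit was at the same base in both libraries. The scaled pileup was 48.2 and 77.5, and no peak was called at 0 h. In the whole genome 197 replicated 6 h regions lay above a mean percentile of 99, and 50 of them were without a 0 h peak. This site is the only one of the 197 that belongs to the axis. A weaker Insr site at chr8:3279306-3279759, 148 bp from an end of the gene, had 49 and 64 reads and percentiles 18.0 and 43.2. The promoter table holds no entry for Insr.

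Igf2r encodes the receptor that binds insulin-like growth factor 2 and carries it to lysosomes, and in the mouse it is an imprinted gene with the antisense transcript Airn. It had 4 replicated 6 h regions and no 0 h peak. The highest-ranking one, at chr17:12804515-12805418, lay 35045 bp upstream of the Igf2r start and inside the annotated Airn gene. It had 89 and 120 reads at 6 h and percentiles 95.8 and 97.2. The neighbouring region at chr17:12799417-12799954, also inside Airn, had 39 and 81 reads and percentiles 42.6 and 84.7. The site over the Igf2r promoter, at chr17:12769630-12769933, was weak, with 30 and 25 reads and percentiles 19.0 and 19.9.

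Both substrate genes were bound at their starts. The Irs1 site at chr1:82290692-82291866 had its summit 87 bp upstream of the start. In 0 h replicate 2 it held 2 separate peaks, of 32 reads (fold 5.05) and 25 reads (fold 6.76). At 6 h it had 81 and 113 reads, and percentiles 87.6 and 79.3. The 6 h replicate 2 summit lay near the 0 h peak with 32 reads, and the 6 h replicate 1 summit near the one with 25 reads. The outermost summits of this site were 402 bp from each other, the widest spread of the 30 sites. The Irs2 site at chr8:11008594-11010079 had its summit 218 bp upstream of the start. It had 23 reads in 0 h replicate 2, near the 22 reads a call in 0 h replicate 1 would have needed. At 6 h it had 114 and 96 reads and percentiles 96.1 and 89.4. The site also lies inside the annotated gene 9530052E02Rik, which overlaps the Irs2 start.

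At both substrate genes other 6 h sites lay downstream of the start, without a 0 h peak. For Irs1 the higher of them, at chr1:82285467-82286002 and 5756 bp from the start, had 45 and 80 reads and percentiles 61.1 and 86.6. The other, at chr1:82283109-82284200, had 51 and 49 reads. For Irs2 the site at chr8:11007513-11008450, 697 bp downstream, had 47 and 45 reads and percentiles 68.3 and 61.8.

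Igfbp5, which encodes one of the binding proteins, carried a site called in all 4 libraries at which the times overlapped. The site at chr1:72871595-72872382 lay inside the gene, 3001 bp downstream of the start, and its 4 summits fell within 13 bp. Its pileup was 42 and 48 reads in the 0 h libraries, against 41 and 68 in the 6 h libraries. The scaled pileup was 15.2 and 18.1 before hCG, and 14.9 and 31.9 at 6 h, so the groups overlapped. The ratio of the means was 1.41 (two-sided exact permutation p = 1), and without 6 h replicate 2 it was 0.893. Its percentiles in the 6 h lists were 47.6 and 63.2. No peak lay inside Igfbp2, and this site, 19390 bp from its nearer end, is also the one replicated region in the Igfbp2 window. The promoter windows of both genes overlapped no peak.

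For the whole genome, 795 sites were called in all 4 libraries, and 3 of them belong to the axis. The median ratio of the scaled pileup at 6 h over 0 h was 3.73, or 1.90 on the log2 scale. Both 6 h values were above both 0 h values at 91.2% of the 795 sites, and at 2 of the 3 sites of the axis. The log2 ratio of the site at the Igf1r start, 2.58, was higher than at 88.8% of the 795 sites. The inner Igf1r site, at 1.05, was higher than 17.6% of them, and the Igfbp5 site, at 0.49, was higher than 6.29%. With 6 h replicate 2 left out at all sites these values were 0.39, higher than 13.5%, and -0.16, higher than 4.40%. The places of these 3 sites are a description, and no test of a single site against the others was made.

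**Figure D3:**
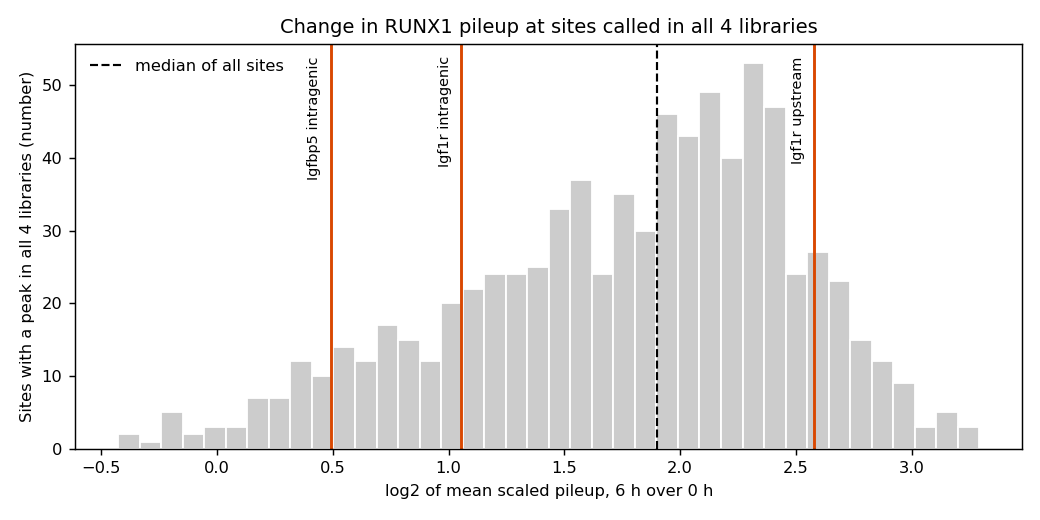
Histogram of the log2 ratio of the mean scaled pileup at 6 h over 0 h (x axis) for the 795 sites with a peak in all 4 libraries (number of sites, y axis). The dashed line is their median, 1.90, and the 3 solid lines are the sites of the axis, at 0.49 (Igfbp5), 1.05 (Igf1r, inside the gene) and 2.58 (Igf1r, upstream of the start).

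Igfbp4, which encodes a binding protein that restrains the ligand in the follicle, had 4 replicated 6 h regions in its window on chromosome 11 and no 0 h peak. The site nearest the start, at chr11:99041140-99041813, had its summit 327 bp downstream. It had 45 and 41 reads, but the local background was also high, at 8.04 and 6.83 reads, and the percentiles were 7.52 and 3.92. The region at chr11:99092703-99093120 ranked highest of the 4, with 37 and 59 reads and percentiles 47.8 and 77.3, 51597 bp downstream of the start. The region at chr11:99081578-99081980 lay inside Tns4 and had 28 and 62 reads, and the region at chr11:99024001-99024401 lay inside Top2a, near an end of that gene. Which gene such a region acts on was not measured.

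Pappa, whose product cuts binding proteins in the follicle fluid, had 4 replicated 6 h regions on chromosome 4, all inside the gene, and no 0 h peak. The strongest, at chr4:65242388-65243387, lay 114830 bp from the nearer end. It had 99 and 168 reads at 6 h, a fold of 23.7 and 48.5, and percentiles 95.7 and 98.8. The scaled pileup was 35.9 and 78.9. The next, at chr4:65285168-65285546, had 51 and 81 reads and percentiles 75.7 and 84.7. No replicated region lay within 1 kb of an end of Pappa.

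**Figure D4:**
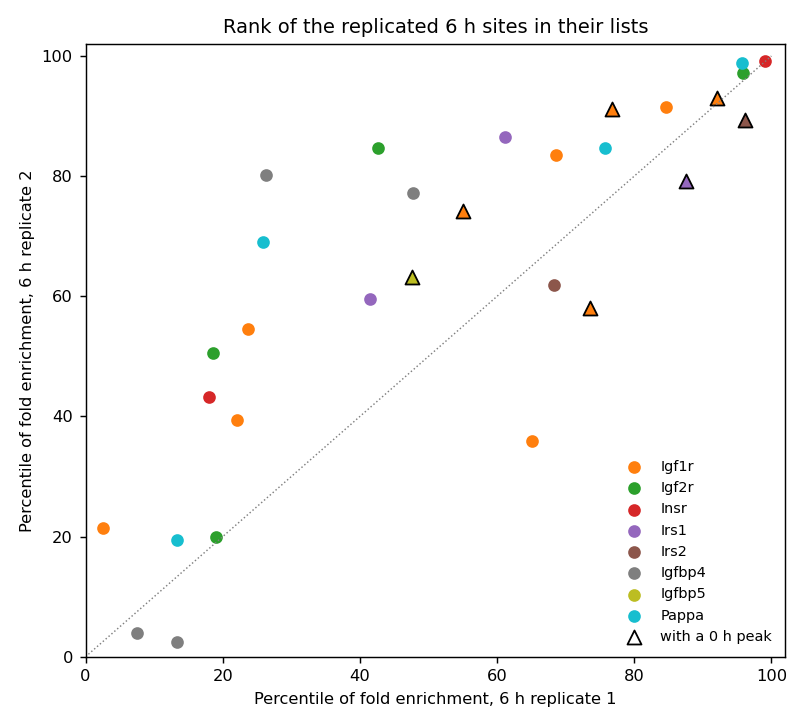
Percentile of fold enrichment in 6 h replicate 2 (y axis) against that in 6 h replicate 1 (x axis) for the 30 sites of the axis called in both, coloured by gene; triangles are the 7 sites that also have a 0 h peak and the dotted line marks equal percentiles. The Insr site is at 99.1 and 99.2, and the triangles lie at mean percentiles from 55.4 to 92.8.

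The 7 sites with a 0 h peak ranked high in the 6 h lists, as such sites did in the whole genome. Their median percentile, averaged over both 6 h libraries, was 83.4, with a range of 55.4 to 92.8. The 23 replicated sites without a 0 h peak had a median of 50.5 and a wider range of 5.72 to 99.1. For all replicated 6 h regions the medians were 84.2 with a 0 h peak and 54.4 without. The sites of the axis that rank highest at 6 h were not among the 7: they are those inside Insr, inside Pappa and upstream of Igf2r, at mean percentiles 99.1, 97.2 and 96.5. The 23 sites called in 6 h replicate 2 alone had 22 to 54 reads there. A call in 6 h replicate 1 would have needed 18 to 32 reads at the same positions. When scaled to the background of 6 h replicate 1, the reads lay above the number needed at all 23 sites.

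The wider pathway was described by 43 further genes, among them other ligands and binding proteins, adaptors, kinases and the transcription factors they act on. A replicated 0 h region lay in the window of 3 of them (8.75% of coding genes): Pik3r1 and Pik3r2, which encode regulatory subunits of phosphatidylinositol 3-kinase, and Gsk3b, which encodes a kinase that the pathway inhibits. At 6 h, 34 of the 43 had a replicated region (68.8% of coding genes), and in 13 such a region overlapped a 0 h peak (27.7% of coding genes). Pik3r2 had 8 replicated 6 h regions and Grb2, which encodes an adaptor, had 7. The 6 genes without a peak in any list were Igf2, Ins2, Igfbp1, Igfbp3, Irs4 and Stc1. Igf2 and Ins2 lie next to each other, as do Igfbp1 and Igfbp3, so their windows overlap.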

How the data were processed

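RUNX1 ChIP-seq peak lists of 4 libraries (single-end reads of 75 nt, per the labels) were used; the 2 inputs entered only through the authors' peak calls. The submitters' processing notes name Bowtie2 2.2.5, MACS2 and the build mm10; peaks were called per library, per the names of the deposited files, and other settings are not given in the sources used here. The deposited columns hold genome positions, a score, the fold enrichment (a ratio) over local background, and the −log10 p-value and −log10 q-value. The score was not used. Positions are printed counted from 1.

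Genes, gene starts and promoter sequences came from NCBI RefSeq on GRCm38.p6; Insr and Pappa have no start or strand here, so distances are to the nearer end. Pileup and background were solved from each deposited fold and p-value (fold as pileup + 1 over background + 1, Poisson upper tail), with a whole-number solution for 100% of peaks and a misfit limit of 0.005 in −log10 p. The solver was tested on simulated data and recovered 100% of 500 pileups. A peak also needs a minimum length, so the reads needed for a call are lower limits. The genome-wide background, the commonest value in a list, stands in for depth, which is not stated. The summit of a region or site is that of its peak with the highest percentile, and a site's value in a library is that of its peak with the highest fold, or the highest pileup for the ratios between times.

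Libraries were the replicates, compared by exact permutation tests in Python 3.11.15 (numpy 2.4.6, pandas 2.3.3, scipy 1.17.1). Every gene of the axis is described. For each, the text gives the 6 h regions that overlap a 0 h peak, up to 2 with the highest mean percentile, and the one nearest the start. The members, lists and tests were chosen with earlier results of these data known. Alternatives were a −log10 q of at least 20, windows of 10 and 0 kb, lists of equal length, summits within 100 bp, overlap of the peak with the window, counting per gene, leaving out each library, the replicate block and, added after the data were seen, leaving out Igf1r.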

Additional observations from a re-analysis of the deposited data

How the results depend on the processing

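The higher peak number at 6 h kept its direction in 11 of 12 alternatives. With lists of equal length it turned to a log2 difference of -0.21 (exact permutation p = 1); fewer 6 h peaks enter under that setting by its construction. In the other 11 the 6 h lists stayed longer than the 0 h lists, so these do not separate the direction from list length. Leaving out 1 library gave log2 differences from 1.90 to 3.35. The lower share of the axis in the 6 h lists kept its direction in 9 of 10 alternatives, with -0.158 to -0.133 percentage points without 1 library, -0.0737 for gene bodies only and -0.0527 in lists of equal length, where it is a matter of 1 peak (exact permutation p = 1). It turned to 0.00478 (exact permutation p = 0.667) without Igf1r, a setting chosen after the data were seen. Its exact permutation p was 0.333 or higher in all of them, and 2 libraries against 2 cannot give less.

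With lists of equal length, 2 genes had a replicated 6 h region, against 9, and 50% of the 2 regions left overlapped a 0 h peak (56.5% over all regions), against 23.3%. The number of genes with a replicated 0 h region was 2 to 5 over all alternatives, against 3 in the main setting (8.75% of coding genes). It was 3 to 5 without 1 library. The 5 came without 0 h replicate 1, where a peak of the remaining 0 h library was enough (28.2% of coding genes had one). The 5 are Igf1r, Irs1, Irs2, Igfbp2 and Igfbp5. Genes with a replicated 6 h region numbered 9 to 10 without 1 library. A peak of the remaining 6 h library was found at 69.3% of coding genes without 6 h replicate 2. Without 6 h replicate 1 it was found at 76.1%. The share of 6 h regions over a 0 h peak ran from 10% (4.96% over all regions) without 0 h replicate 2 to 23.3% without 1 library. It was 28% with windows of 10 kb, 19.0% for gene bodies only and 15% without Igf1r, against 16.5% over all regions. The 16.5% was not restricted to regions within 10 kb of genes or inside them. The share at the axis was 12.0% (14.5% over all) with summits within 100 bp and 19.0% (8.50% over all) with the stricter q.

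Leaving out 1 library, also chosen after the data were seen, moved the log2 ratio of the Igfbp5 site between -0.164 (without 6 h replicate 2, the other direction) and 0.94 (without 6 h replicate 1). Those of the Igf1r sites stayed above 0, from 0.386 to 1.51 inside the gene and from 2.32 to 2.89 at the start.

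The replicate numbers in the labels could pair libraries across the times, but 2 pairs do not show whether they do. With the numbers as a replicate block the differences were 2.62 on the log2 scale and -0.145 percentage points, with an exact permutation p of 0.5, the smallest that 2 pairs allow. Depth is known only through the recovered background, and a call needed at least 16 to 18 reads at the genome-wide background and more where the local background was higher.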
